A study of Mus musculus with 4 samples.

Results

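MHC class I molecules carry short peptides from inside the cell to its surface, where CD8+ T cells and NK cells read them. The peptides are cut by the proteasome, moved into the endoplasmic reticulum by the Tap1-Tap2 transporter and loaded onto a heavy chain paired with beta-2 microglobulin. Interferons are known to switch on most of these genes together, and in macrophages they also exchange the catalytic subunits of the proteasome for a second set that forms the immunoproteasome.

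The expression of 10 genes of this pathway was compared between macrophages given little or much necrotic fat. The set held the transactivator Nlrc5, the heavy chains H2-K1 and H2-D1, the light chain B2m, the peptide transporter Tap1 and Tap2, the loading factor Tapbp and the immunoproteasome subunits Psmb8, Psmb9 and Psmb10. They were taken by symbol, and all 10 were among the 17013 genes listed. The cells were bone marrow-derived macrophages of wild-type (WT) C57BL/6 male mice, grown with M-CSF and seeded on Transwell inserts. The age of these mice is not given in the sources used here. Every culture received artificial necrotic bone fluid (aNBF), made by freezing and thawing bone, and was kept for 24 h over freeze-thawed abdominal fat. In Con the fat medium was the middle layer of the fat preparation, which is poor in fat, and in Fat it was the top layer, which is rich in it. Each medium had 2 libraries of polyadenylated RNA, numbered 1 and 2. Nothing in the labels says that the libraries of a medium came from separate animals or cultures. The p-values rest on the spread between these libraries, moderated by that of other genes, and may not cover the spread between animals or cultures.

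Levels are given as CPM, each gene's reads scaled by the size of its library, or as TPM, also scaled by transcript length, where genes of different length are compared. The libraries held 33573852 and 37881292 reads in Con and 37534565 and 40785872 reads in Fat. At this depth 3 reads were worth 0.0732 to 0.0885 CPM, counting error only, and the gene of the set with the fewest reads, Psmb9, still had 1814 in its lowest library. Of 8 macrophage markers, 7 were read in every library and Adgre1 was not analysed here. Fat and Con were compared with two-sided limma tests on log2(CPM + 0.1), after a filter that kept 12470 genes reaching 0.5 CPM in 2 or more of the 4 libraries. A gene is called higher or lower where its adjusted p-value (Benjamini-Hochberg over all genes tested) is under 0.05. For a single gene, an exact permutation test of 2 libraries against 2 cannot go below p = 0.333.

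The sequence upstream of the start sites was read for the genes of the set for which it was at hand. RefSeq promoter windows (GRCm38.p6) were matched for 8 of the 10 genes, and the 250 bases before each start were searched on both strands for 3 motifs: TGACG followed by 20 bases and ATTGG, AANNGAAA, and the NF-kB consensus. The first is a form of the paired X2 and Y elements that the Nlrc5 complex is known to use, the second is a core that interferon regulatory factors bind, and all 3 were chosen after the sequences had been read. H2-K1, H2-D1 and B2m, which encode the subunits of the class I molecule itself, held all 3. They are printed below from 5' to 3' on the strand of the gene, with the motif matches in capitals. Among the 8 genes with a window, these 3 alone held any of the motifs. The H2-K1 stretch is chr17:34000348-34000527 on the minus strand, the H2-D1 stretch chr17:35262914-35263093 on the plus strand and the B2m stretch chr2:122147507-122147686 on the plus strand.
H2-K1: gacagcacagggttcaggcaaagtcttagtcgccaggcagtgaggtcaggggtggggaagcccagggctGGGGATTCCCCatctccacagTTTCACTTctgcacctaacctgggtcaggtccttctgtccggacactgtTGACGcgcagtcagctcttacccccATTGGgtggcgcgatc
H2-D1: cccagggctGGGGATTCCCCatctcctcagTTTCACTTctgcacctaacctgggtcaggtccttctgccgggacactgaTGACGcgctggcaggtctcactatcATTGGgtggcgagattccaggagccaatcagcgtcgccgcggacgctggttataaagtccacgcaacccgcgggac
B2m: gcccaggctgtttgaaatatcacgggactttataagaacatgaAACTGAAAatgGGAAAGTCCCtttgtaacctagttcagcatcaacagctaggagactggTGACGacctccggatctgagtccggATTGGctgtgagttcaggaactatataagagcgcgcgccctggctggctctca

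In H2-K1 and H2-D1 the NF-kB match came first, then the AANNGAAA match read on the opposite strand (TTTCACTT), then the spaced pair. B2m held the AANNGAAA match first and the NF-kB match after it, and ended with the same pair at the same spacing. The TGACG element began at -101 from the start of H2-D1, at -78 from that of B2m, and at -41 or -55 from the annotated starts of H2-K1. Among 27025 genes with a window, 0.0962% held the pair at this spacing, and 0.274% held it with a spacer of 18 to 22 bases. AANNGAAA was found in 23.9% of genes and the NF-kB consensus in 4.46%. All 3 motifs stood together in 5 genes, which were B2m, H2-D1, H2-K1, the class I heavy chain H2-M3 and Nrarp. These matches describe letters in a window and do not show that a factor was bound there.

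None of the 3 motifs was matched in the windows of Tap1, Psmb9, Tapbp, Psmb8 and Psmb10. Of the constitutive catalytic subunits compared below, Psmb6 held AANNGAAA at -70 on the opposite strand and Psmb5 held none of the 3. Psmb7 had no window. Alone, the first part of the spaced pair was found in 19.8% of genes with a window and the second part in 37.5%. Psmb5 and Psmb6 held the first part, Tapbp the second, and Psmb8 and Psmb10 neither. Tap1 and Psmb9, which held both, are divergent neighbours whose starts lie 225 bases apart. The stretch between them is printed on the plus strand of chr17:34187331-34187555. Its single matches to the second part (CCAAT on this strand) and, farther along, to the first part (TGACG) are in capitals.
Tap1-Psmb9: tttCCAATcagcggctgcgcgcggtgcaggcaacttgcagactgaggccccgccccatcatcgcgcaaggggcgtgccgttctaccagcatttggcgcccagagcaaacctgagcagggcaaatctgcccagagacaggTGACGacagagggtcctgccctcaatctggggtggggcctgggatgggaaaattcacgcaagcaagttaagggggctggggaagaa

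On this chromosome Psmb9, Tap1, Psmb8 and Tap2 follow each other as consecutive protein-coding genes between H2-DMb1 and H2-Ob. In all, 7 genes of the set lie on chromosome 17, 2 on chromosome 8 (Nlrc5 and Psmb10) and 1 on chromosome 2 (B2m).

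All 10 genes passed the filter on low values, and each had both Fat libraries below both Con libraries. Such an order was seen in 26.2% of all genes tested. Tap1, Tap2, Tapbp, Psmb8, Psmb9 and Psmb10, which cut, transport and load peptides, were called lower in Fat, at between 60.6% and 73.3% of their Con means. H2-K1, H2-D1 and B2m, which make up the class I molecule itself, and Nlrc5 did not pass the test. This is a difference in calls only, since called and uncalled genes were not tested against each other. DESeq2 called H2-K1, H2-D1 and B2m as well. The count was thus 6 of 10 lower and 0 higher, where 5% of all genes tested were called lower and 3.99% higher. The median log2 fold change over the set was -0.55, and over all genes tested it was 0.01. In bulk RNA, fewer cells of a type and less RNA per cell cannot be told apart.

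**Figure D1:**
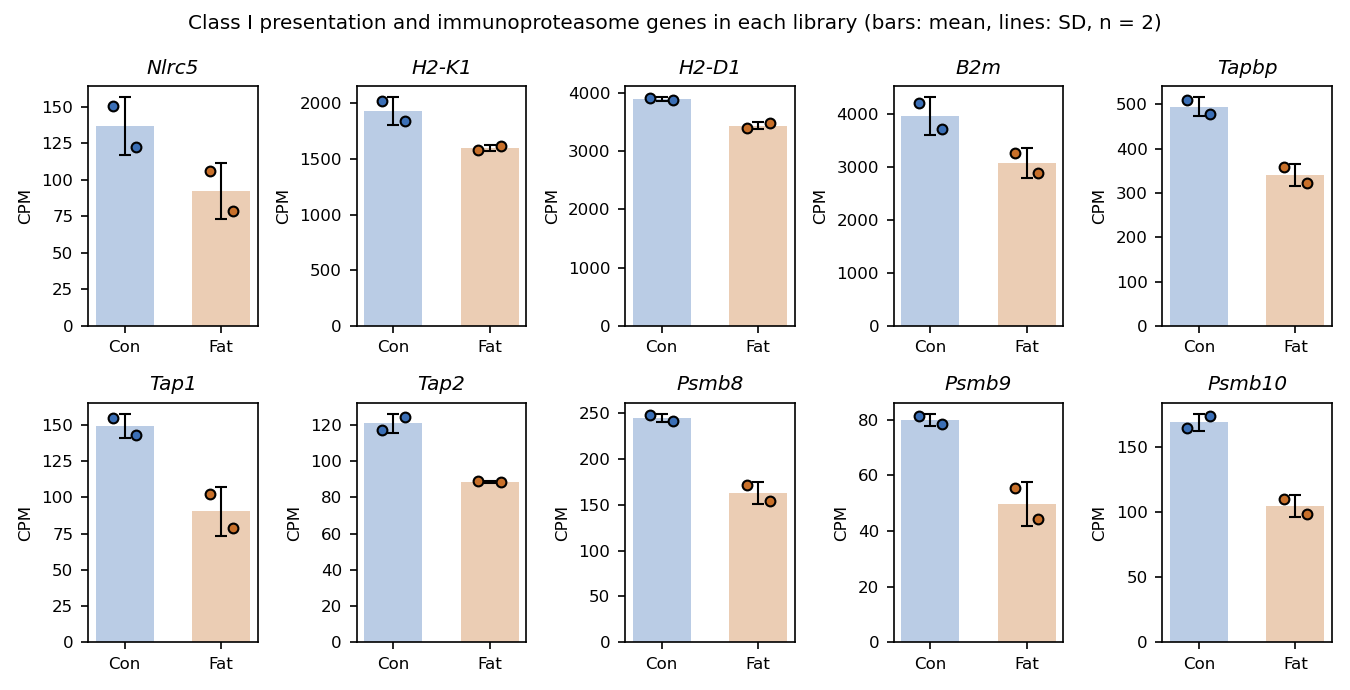
CPM of the 10 class I presentation and immunoproteasome genes in Con and Fat, with points for libraries, bars for means and lines for the SD (n = 2). In every panel both Fat points lie below both Con points, with the smallest relative gap for H2-D1 (3392 and 3475 CPM against 3910 and 3868 CPM).

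The immunoproteasome subunits are proteases that replace the constitutive catalytic subunits and favour peptides with ends that class I molecules can hold. In the order of replicates 1 and 2, kept throughout, Psmb8 was at 247 and 241 CPM in Con and at 171.5 and 154 CPM in Fat. Psmb9 was at 81.4 and 78.3 CPM in Con and at 55.4 and 44.2 CPM in Fat. Psmb10 was at 164 and 173 CPM in Con and at 110.2 and 98.6 CPM in Fat. In all 3 the Con libraries lay close together and well above the Fat libraries. Psmb8 fell by 0.59 on the log2 scale (standard error 0.07, limma adjusted p = 0.0044). The fall was 0.69 for Psmb9 (standard error 0.10, limma adjusted p = 0.00922) and 0.69 for Psmb10 (standard error 0.07, limma adjusted p = 0.00347).

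The constitutive catalytic subunits gave no such difference. Psmb5, which Psmb8 replaces, was at 73.0 and 81.3 CPM in Con and 79.8 and 83.7 CPM in Fat. Psmb6, the counterpart of Psmb9, was at 179.5 and 197 CPM in Con and 188 and 189 CPM in Fat. Psmb7, the counterpart of Psmb10, was at 80.0 and 85.6 CPM in Con and 83.9 and 82.8 CPM in Fat. The groups overlapped for all 3. Their log2 fold changes were 0.09 (95% interval -0.07 to 0.25), 0.00 (-0.14 to 0.15) and 0.01 (-0.13 to 0.15), so a change of the size seen in the immunosubunits lay outside each interval. The signs for Psmb6 and Psmb7 changed between scalings or with a library left out, so no direction is given. By limma, edgeR and DESeq2, 0 of 3 were called, and 0 had an unadjusted limma p under 0.05.

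Set against its counterpart within each library, every immunosubunit was lower in Fat. The ratio of Psmb8 to Psmb5, in TPM, was 2.42 and 2.11 in Con and 1.53 and 1.31 in Fat. For Psmb9 to Psmb6 it was 0.583 and 0.511 in Con and 0.378 and 0.301 in Fat. For Psmb10 to Psmb7 it was 1.57 and 1.54 in Con and 1.003 and 0.909 in Fat. None of the 3 ratios overlapped between the groups. The log2 ratios differed by -0.67, -0.69 and -0.70 (exact two-sided permutation p = 0.333 for each, the smallest 2 libraries against 2 allow). Over the 6 catalytic genes together, the immunosubunits made up 56.0% and 53.7% of the TPM in Con and 45.1% and 41.5% in Fat. These are shares of transcripts, and the assembled proteasomes were not measured.

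**Figure D2:**
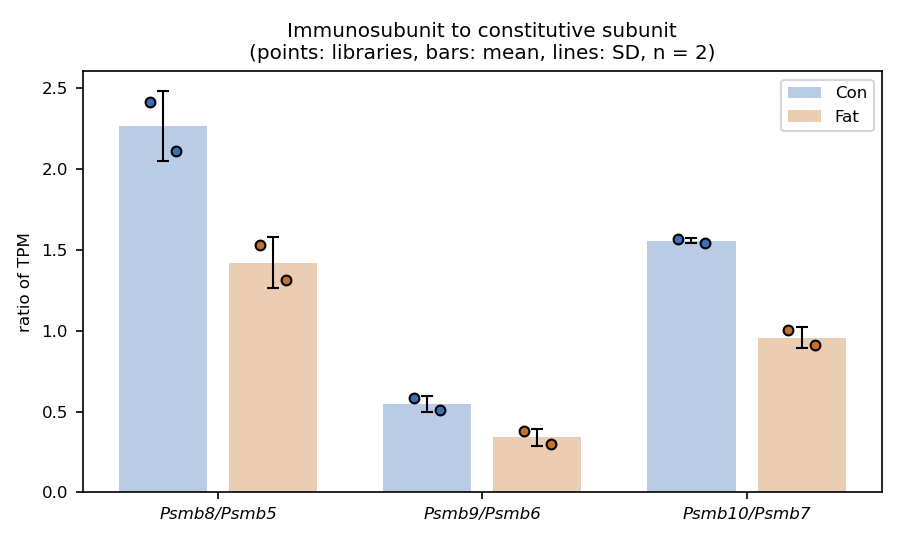
TPM ratio of each immunosubunit to the constitutive subunit it replaces, with points for libraries, bars for means and lines for the SD (n = 2). The Con mean of Psmb8/Psmb5 is 2.26 and the Fat mean 1.42, and in all 3 pairs both Fat points lie under both Con points.

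Beyond the catalytic subunits, a list of proteasome activators and related genes and the subunits of the shared core were compared. Psme1 and Psme2, known to respond to interferon, form an activator ring that opens the core. Psme1 was at 204 and 199.97 CPM in Con and 154 and 131 CPM in Fat, a fall of 0.51 on the log2 scale (limma adjusted p = 0.0113). Psme2 was at 168 and 151.5 CPM in Con and 110.3 and 89.5 CPM in Fat, a fall of 0.68 (limma adjusted p = 0.00941). For both the groups were apart, and 22.9% of the 75-base stretches of Psme2 also occur in its copy Psme2b. The remaining genes of that list, Psme3, Psme4, Psmf1, Psme2b and the assembly factor Pomp, did not pass. Thus 2 of 7 tested were lower and 0 higher, where 5% of all genes tested were called lower. Of the 11 subunits of the core that both proteasomes share, 0 were called by limma, edgeR or DESeq2 in the fits without a replicate block. At an unadjusted limma p under 0.05, 2 of the 11 were lower and 1 higher, where 12.4% of all genes tested were lower and 11.8% higher. The core had a median log2 fold change of -0.05, and no test compared it with the activators.

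Tap1 and Tap2 together form the pump that carries peptides into the endoplasmic reticulum. Tap1 was at 155 and 143 CPM in Con and at 102 and 78.5 CPM in Fat. Tap2 was at 117 and 124 CPM in Con and at 88.9 and 88.2 CPM in Fat. Tapbp, or tapasin, ties the pump to empty class I molecules and was at 509.6 and 479 CPM in Con and 358 and 324 CPM in Fat. The groups were apart in all 3, and the Fat libraries of Tap1 spread most relative to their mean. Tap1 fell by 0.73 on the log2 scale (standard error 0.11, limma adjusted p = 0.0115), Tap2 by 0.45 (standard error 0.06, limma adjusted p = 0.00574) and Tapbp by 0.54 (standard error 0.07, limma adjusted p = 0.00639).

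Among 11 further genes of peptide trimming, folding and loading, 2 were called lower and 0 higher, where 5% of all genes tested were called lower. The median log2 fold change of the 11 was -0.10. Tapbpl, a tapasin relative that edits peptides, was at 70.5 and 69.4 CPM in Con and 44.0 and 36.3 CPM in Fat. Lap3, an aminopeptidase, was at 112 and 115.5 CPM in Con and 91.3 and 74.7 CPM in Fat. Both had groups that did not overlap. Tapbpl fell by 0.81 on the log2 scale (limma adjusted p = 0.00447) and Lap3 by 0.46 (limma adjusted p = 0.0242). Lap3 lost its call without Fat replicate 2 (adjusted p = 0.0562) and with the TPM values (adjusted p = 0.0564). The general chaperones of that list, Calr, Canx, Pdia3 and Hspa5, and the trimming peptidase Erap1 were not called.

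The heavy chains and the light chain were by far the most abundant transcripts of the set. H2-K1 was at 2016 and 1840.1 CPM in Con and at 1579 and 1620.0 CPM in Fat. H2-D1 was at 3910.2 and 3868 CPM in Con and at 3392 and 3475 CPM in Fat. B2m was at 4211 and 3711 CPM in Con and at 3271 and 2878 CPM in Fat. The groups were apart in each of the 3, with the Con libraries of B2m 354 CPM (SD) around their mean. The log2 fold changes were -0.27 for H2-K1 (95% interval -0.46 to -0.08, limma adjusted p = 0.0876), -0.18 for H2-D1 (-0.39 to 0.03, limma adjusted p = 0.273) and -0.37 for B2m (-0.62 to -0.11, limma adjusted p = 0.0900). None passed the test. Their calls turned on the tool and on 1 library: DESeq2 on the recovered reads called all 3 (adjusted p = 0.00431, 0.0439 and 0.00158), and without Con replicate 2 limma called H2-K1 (adjusted p = 0.0354) and B2m (adjusted p = 0.0295). Over the 4 libraries left out in turn, limma's adjusted p lay between 0.0354 and 0.246 for H2-K1, between 0.301 and 0.557 for H2-D1 and between 0.0295 and 0.387 for B2m.

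The intervals of Tap1, -1.001 to -0.47, and Psmb10, -0.85 to -0.53, did not overlap those of H2-K1 and H2-D1. Those of Psmb8, -0.74 to -0.43, and Psmb9, -0.92 to -0.45, did not overlap that of H2-D1, while those of Tap2 and Tapbp did. The interval of B2m, -0.62 to -0.11, overlapped those of all 6 called genes, and that of H2-K1 overlapped those of Tap2, Tapbp, Psmb8 and Psmb9. The changes of these genes relative to each other were not tested. The summed TPM of H2-K1 and H2-D1 over that of B2m was 0.708 and 0.774 in Con and 0.764 and 0.890 in Fat, so the balance of heavy to light chain transcripts overlapped between the groups. The 10 genes together took 1.17% and 1.07% of all reads in Con and 0.918% and 0.889% in Fat.

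Nlrc5, a relative of the class II transactivator Ciita, is known to drive transcription of class I genes. It was at 150.4 and 122 CPM in Con and at 106 and 78.6 CPM in Fat. The groups were apart, but the libraries of each medium differed by more, relative to their mean, than those of Tap1, Tap2 and Psmb10. The difference of -0.57 on the log2 scale lay just outside the threshold (standard error 0.14, limma adjusted p = 0.0520). Without Con replicate 2 it was -0.72 (limma adjusted p = 0.0110) and without Fat replicate 1 it was -0.79 (limma adjusted p = 0.00336), while the adjusted p over the 4 libraries left out in turn reached 0.133 and DESeq2 gave 0.211. With CPM rescaled by median ratios it was called (limma adjusted p = 0.0420).

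**Figure D3:**
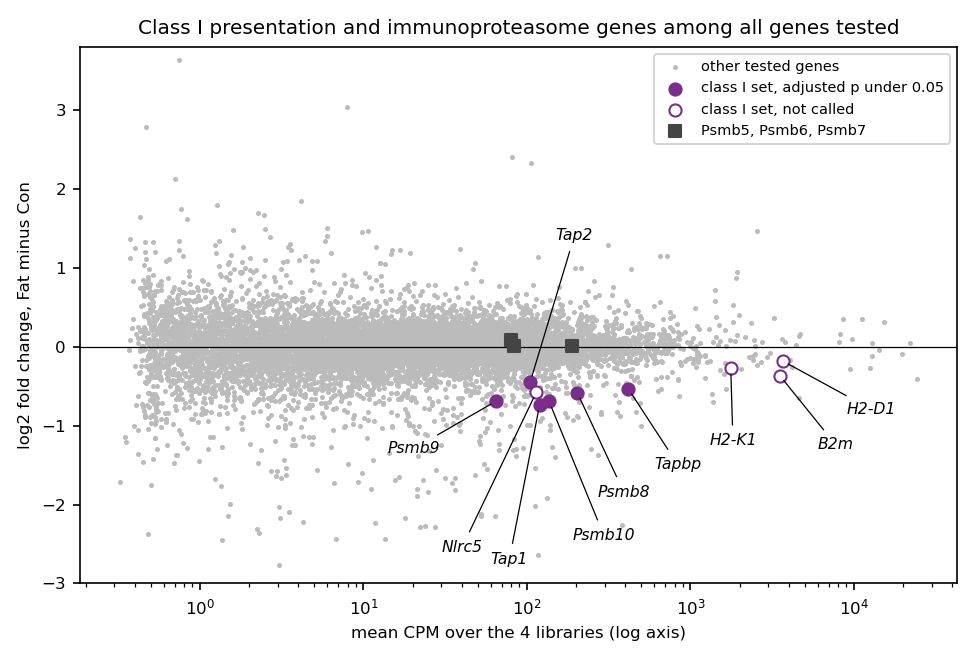
Log2 fold change of Fat over Con against the mean CPM of all 4 libraries (log axis) for each of the 12470 genes tested, with the class I presentation and immunoproteasome genes in purple and Psmb5, Psmb6 and Psmb7 as squares. The purple points lie between -0.73 (Tap1) and -0.18 (H2-D1), with the 3 most abundant ones, all open, nearest to 0, and the squares lie between 0.00 and 0.09.

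Scaled for length, the order of levels in Con was B2m (10739 and 9280 TPM), H2-D1 (4928 and 4781 TPM), H2-K1 (2680.1 and 2399 TPM), Psmb8 (443 and 423 TPM), Tapbp (405.5 and 374 TPM), Psmb10 (283 and 293 TPM), Psmb9 (221 and 209 TPM), Tap1 (115 and 104 TPM), Tap2 (103 and 107 TPM) and Nlrc5 (47.4 and 37.8 TPM). Tap1 and Tap2 overlapped there, and every other pair of neighbours was apart. In Fat the order was the same except that Tap2 (79.2 and 78.4 TPM) stood above Tap1 (76.6 and 58.9 TPM) without overlap. Psmb8 (311 and 279 TPM) and Tapbp (289 and 261 TPM) overlapped in Fat.

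Class I heavy chains resemble each other in sequence, which limits how reads can be assigned. In the GENCODE vM21 transcripts, 3.10% of the 75-base stretches of H2-K1 and 5.40% of those of H2-D1 occur exactly in another gene. The share was 1.10% for Tapbp and 0% for the other genes of the set. How the authors counted reads that match several genes is not given in the sources used here. A gene listed as H2-L held 2338 and 2406 CPM in Con and 2063 and 2265 CPM in Fat, a log2 fold change of -0.13 (limma adjusted p = 0.394). The annotation used here has no H2-L transcript, so its overlap with H2-D1 could not be checked. H2-L is named after its values were seen, since C57BL/6 mice are known as a strain without a separate L molecule.

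Of 26 other class I heavy chains and class I-like genes, 19 passed the filter, and 9 of these were called lower and 0 higher, with a median log2 fold change of -0.53. Together with the loading list this made 11 of 30 genes lower. Some of these genes share their reads: H2-Q6 with H2-Q8 and H2-Q7 with H2-Q9 in full, and H2-T9 with H2-T22 nearly so. With each such pair counted once, 7 of 16 heavy chains and 9 of 27 genes with the loading list were lower. Of all genes tested, 5% were called lower. H2-M2, a nonclassical heavy chain, was at 6.69 and 6.13 CPM in Con and 2.87 and 2.83 CPM in Fat. H2-T24 was at 61.0 and 43.6 CPM in Con and 30.6 and 19.8 CPM in Fat. Cd1d1, which presents lipids to NKT cells, was at 58.9 and 42.5 CPM in Con and 32.5 and 23.5 CPM in Fat. The groups were apart in all 3, and the 2 libraries of a medium were closest for H2-M2. H2-M2 fell by 1.14 (limma adjusted p = 0.00447), H2-T24 by 1.06 (limma adjusted p = 0.0255) and Cd1d1 by 0.85 (limma adjusted p = 0.0298) on the log2 scale. Cd1d1 lost its call without Con replicate 1 (adjusted p = 0.0573) and without Fat replicate 2 (adjusted p = 0.0639), and both it and H2-T24 lost it with DESeq2 (adjusted p = 0.0890 and 0.0789).

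H2-Q7 and H2-Q9 had the same reads in every library, at 18.1 and 14.8 CPM in Con and 9.40 and 10.6 CPM in Fat, and fell by 0.71 (limma adjusted p = 0.0154). These genes encode Qa-2 antigens and count as a single measurement. H2-T9 was at 126 and 107 CPM in Con and 83.0 and 68.6 CPM in Fat and fell by 0.62 (limma adjusted p = 0.0162). H2-T22 held nearly the same reads as H2-T9 in each library, so these are not separate evidence either. The other genes called, named after their values were seen, were H2-T23, the heavy chain of Qa-1, and H2-M3, which presents formylated peptides. H2-T23 fell by 0.53 on the log2 scale (limma adjusted p = 0.00605) and H2-M3 by 0.46 (limma adjusted p = 0.0111). The neonatal Fc receptor Fcgrt, the iron regulator Hfe and Mr1, which share the class I fold but are known for other ligands, were not called.

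**Figure D4:**
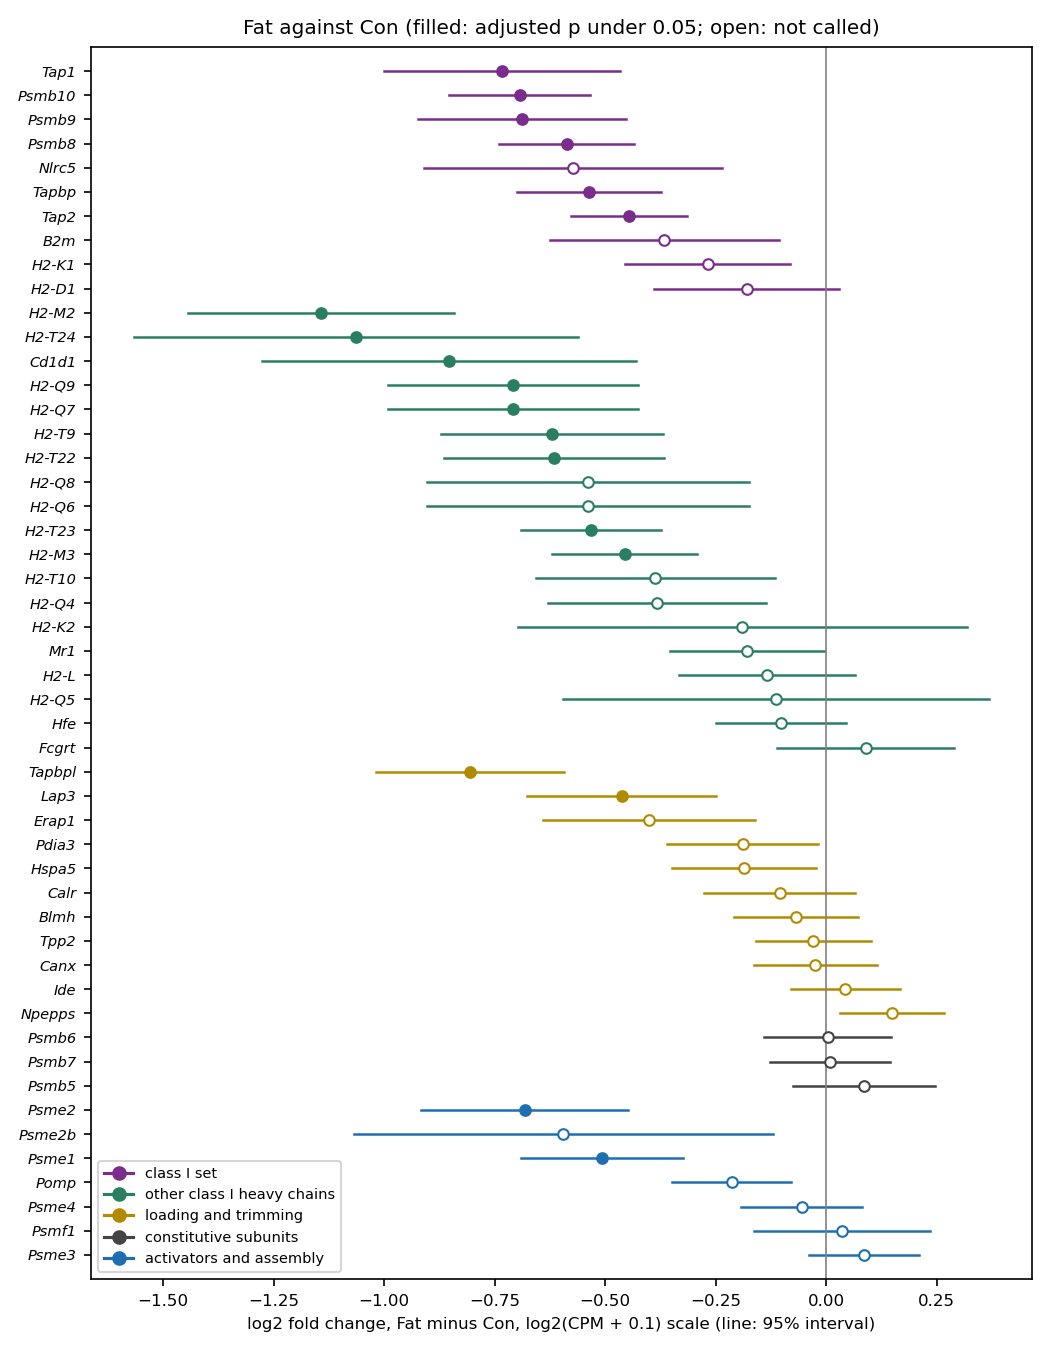
Log2 fold change of Fat over Con with its 95% interval for the 10 class I and immunoproteasome genes and 4 related lists; filled points have an adjusted p under 0.05 and open points do not. The filled points all lie below 0, between -1.14 (H2-M2) and -0.45 (Tap2), and the constitutive subunits Psmb5, Psmb6 and Psmb7 lie between 0.00 and 0.09.

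Among 22 factors known to act on class I transcription or on the interferon receptors upstream of it, 6 were called lower and 0 higher. The median log2 fold change of the 22 was -0.18, and 5% of all genes tested were called lower. Irf1, an interferon-induced activator of class I and immunoproteasome genes, was at 367 and 362 CPM in Con and 224 and 179.99 CPM in Fat. Irf8 was at 216.5 and 234 CPM in Con and 154 and 169 CPM in Fat. Con and Fat were apart in both. Irf1 fell by 0.86 (limma adjusted p = 0.00447) and Irf8 by 0.48 (limma adjusted p = 0.00825) on the log2 scale. Ciita, which drives class II genes, fell by 1.11 (limma adjusted p = 0.00339), from 34.2 and 31.0 CPM in Con to 16.6 and 13.6 CPM in Fat.

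Smaller falls were called for Irf2 (0.27, limma adjusted p = 0.0370) and Jak2 (0.29, limma adjusted p = 0.0476). Both lost their calls without Con replicate 1 (adjusted p = 0.129 and 0.169) and without Fat replicate 2 (adjusted p = 0.195 and 0.222), and with the TPM values 3 genes of this list were called. The subunits of the complex that Nlrc5 works through were not called: Rfx5, Rfxap, Rfxank, Nfya, Nfyb and Nfyc had log2 fold changes between -0.25 and 0.11. The interferon receptor chains Ifngr1, Ifngr2, Ifnar1 and Ifnar2 and the NF-kB subunits Nfkb1 and Rela were not called either.

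The parallel class II pathway, which presents peptides from material taken up by the cell, had 6 of 12 genes lower and 0 higher. Its median log2 fold change was -0.71, and 5% of all genes tested were called lower. H2-Eb2, H2-DMb2, H2-Oa and H2-Ob, at 0.589 to 4.15 CPM, were among those not called. H2-Eb1 (-0.93), H2-DMa (-0.90), H2-Aa (-0.88) and H2-Ab1 (-0.83) had the largest log2 fold changes of that list. No test of a difference between the class I and class II genes was made.

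The 5 tested genes outside these lists whose values over the 4 libraries lay nearest to the mean profile of the set were Tor3a, Zfp783, Tmem140, Trim14 and Tmem229b. Likeness was the summed absolute difference of log2(CPM + 0.1) values centred on each gene's mean, and it ran from 0.0320 for Tor3a to 0.0716 for Tmem229b. On the same measure the nearest gene of the set was Tapbp at 0.0596 and the farthest H2-D1 at 0.655. Tor3a, a torsin ATPase, was at 102 and 95.6 CPM in Con and 73.9 and 66.1 CPM in Fat. Since they were chosen for this pattern, no test is given for them.

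Markers of other cells were summed in each library. The 8 adipocyte markers summed to 0.147 and 0.160 CPM in Con and 4.58 and 2.78 CPM in Fat, with Adipoq, Lep, Pck1 and Cidea at 0 reads in both Con libraries. Of the 8, Cidec, a lipid droplet protein, was the one gene that passed the filter, and it passed only through its Fat libraries. It had 0 and 2 reads in Con and 67 and 47 reads in Fat. Cidec was called higher (log2 fold change 3.63, limma adjusted p = 0.0044), a direction that such filtering favours. The size of this change depended on the settings, from 1.25 to 5.71 over the alternatives. The 6 dendritic cell markers summed to 17.9 and 13.8 CPM in Con and 12.4 and 9.37 CPM in Fat, most of it Clec9a, while Flt3, Xcr1 and Cd209a were at or near 0. The 7 T and NK cell markers summed to 6.96 and 5.94 CPM in Con and 4.23 and 3.41 CPM in Fat. Of these Ifng, the gene of interferon gamma, had 13 and 17 reads in Con and 4 and 4 reads in Fat, too few for the test, and it is named after its values were seen. The 4 B cell markers summed to 23.5 and 22.5 CPM in Con and 17.98 and 21.8 CPM in Fat. None of these 4 sums overlapped between the groups. Among single genes tested, 26.2% had both Fat libraries below both Con libraries. By limma, edgeR or DESeq2 without a replicate block, 0 of the 3 dendritic, 4 T and NK and 4 B cell markers tested were called. At an unadjusted limma p under 0.05, 1 dendritic, 2 T and NK and 0 B cell markers were lower, where 12.4% of all genes tested were. The 7 macrophage markers summed to 32779 to 34746 CPM in Con and 25918 to 27440 CPM in Fat, most of it Lyz2. These sums did not overlap either. Fcgr1 and Mertk, 2 of the 7, were called lower, where 5% of all genes tested were. Cd68 and Itgam went the other way without a call (log2 fold changes 0.09 and 0.07), and their groups overlapped. Csf1r, Lyz2 and Cd14 were lower without a call. The neutrophil (244 to 283 CPM) and fibroblast and endothelial markers (264 to 352 CPM) overlapped between the groups, and Dcn of the last list was called lower. In that list Pecam1 and Col1a1 had positive log2 fold changes (0.47 and 0.04) and Col3a1 and Pdgfra negative ones, all without a call. The part of any of these cells in the class I result was not tested.

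The calls of the set rest on limma's sharing of variance among genes of like level. Without this mean-variance trend 0 of the 10 genes were called, with limma adjusted p-values from 0.0831 to 0.210, although with the trend 9 of 10 had an unadjusted limma p under 0.05 (12.4% of all genes tested were lower at that threshold). DESeq2 called 9 of the 10 lower, where it called 4.77% of all genes tested lower, and edgeR 6, where it called 5.2%. With any single library left out, 6 to 9 of the 10 were called.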

How the data were processed

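Poly(A) RNA of macrophages was sequenced in 4 libraries as single reads of 75 bases. The authors deposited CPM (reads scaled by library size and a factor of 0.990 to 1.01) and TPM (also by transcript length) for 17013 genes. The submitters' processing notes name GRCm39. Aligner, annotation, and the use of strand or of shared reads in counting are not given in the sources used here. Every CPM value was a whole number of reads (100% within 0.01), and these reads were used for edgeR and DESeq2.

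limma 3.58.1 (R 4.3.3), with a mean-variance trend, was the main test, on log2(CPM + 0.1). Fold changes on this scale understate low genes. The fit was also run on simulated counts with the same dispersion for every gene and no batch effect. That run does not show how it performs on these libraries. Alternatives were edgeR 4.0.16, DESeq2 1.42.0, TPM, median-ratio scaling, a pseudocount of 1 CPM, filters of none or a mean of 5 CPM, no trend, unadjusted p-values, a replicate block, and each library left out.

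The genes of the set and all lists were chosen with earlier results of these data known. Named are the set, Psmb5, Psmb6 and Psmb7, up to 6 called genes per related list and 4 of class II by largest change, and the 5 genes most alike. Others are marked as named after their values were seen, or stand as list members without a call. RefSeq (GRCm38.p6) gave promoters and gene order, and GENCODE vM21 gave shared stretches. Promoters of Nlrc5 and Tap2 were not analysed here, and 1 called regulator is not reported here.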

Additional observations from a re-analysis of the deposited data

How the results depend on the processing

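The fall of the 6 called genes of the set kept its direction under every alternative run, and its call under all but the fit without the mean-variance trend. That fit called 0 genes of the set, 1 of the 30 other class I genes (11 in the main comparison), and 19 genes higher and 12 lower in all (498 and 624 in the main comparison). With unadjusted p-values, 19 of the 30 other class I genes, 1467 genes higher and 1541 lower were called. TPM gave 366 genes lower, and the share of higher genes among the calls was 53.7% against 44.4% with CPM. The median log2 fold change of all genes lay between 0.00 and 0.04 over these scalings.

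Replicate numbers are shared by the media in the labels, but nothing says that they mark a batch or an animal. The deviations of libraries with the same number had a correlation of 0.20 over the genes tested, from 2 pairs. With the number as a replicate block, limma called 1278 genes higher and 1242 lower and 9 of the 10 genes of the set, all but H2-D1, with Nlrc5 at an adjusted p of 2.82e-09 and 1 of the 11 shared core subunits higher. edgeR with the replicate block called 1382 genes higher, 1394 lower, 17 of the other class I genes, and 2 shared core subunits lower and 1 higher.

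Leaving out each library in turn gave 216 to 519 genes higher and 313 to 612 lower, 6 to 9 genes of the set and 9 to 14 other class I genes. The lowest counts came without Fat replicate 2 (216 higher and 313 lower), and without Con replicate 1 there were 332 higher and 334 lower. The log2 ratio differences lay between -0.79 and -0.56 for Psmb8/Psmb5, between -0.86 and -0.53 for Psmb9/Psmb6 and between -0.77 and -0.63 for Psmb10/Psmb7. Psmb6 changed sign around 0, to -0.0632 without Con replicate 1 (0.0706 without Con replicate 2), -0.00490 with rescaled CPM, -0.00266 with edgeR, -0.00141 with edgeR and the block and -0.00653 with DESeq2. Psmb7 was at -0.0392 without Con replicate 1 and 0.0587 without Con replicate 2. Over all named genes and alternatives, 498 values kept their direction and side of the threshold, 47 lost the call, 17 gained it and 6 changed sign. The causes of these changes were not tested.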
